A study of Mus musculus with 54 samples.

Results

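The genes described here carry glucose into the cell and break it down to pyruvate and lactate. The list named 32 mouse genes: the glucose carriers Slc2a1 and Slc2a3, the enzymes of each glycolytic step with their isoforms, the Pfkfb enzymes that set fructose bisphosphate levels, the pyruvate dehydrogenase kinases and subunit Pdha1, the lactate carriers Slc16a1 and Slc16a3, and Bpgm. A gene was kept if at least 1 percent of the annotated cells had a count, and 31 of the 32 passed, out of 23154 genes in the count table. Eno1 was the gene left out, with 5 counts in 2 of 2301 cells. The kept gene nearest to that limit was Pgam2, with a count in 4.04% of the cells. Together the 31 genes took 0.7074% of all counts of annotated cells.

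The study profiled single mouse blood-forming cells by a modified Smart-seq2 method, which copies the mRNA of 1 cell to cDNA and here reads the 3' ends. Cells were collected 1, 3, 5 and 7 days after transplantation of haematopoietic stem cells, or sorted at steady state by surface phenotype into 28 gates. Among the gates, iHSC1 to iHSC5 are the stem cell gates (annotated LT_HSC, Fraction I, Fraction III, ESLAM and ESLAMSK) and iMPP1 to iMPP9 the multipotent progenitor gates, beside committed progenitors (CMP, GMP, MEP, CLP), erythroblasts (EryA, EryB), megakaryocytes (MK), granulocytes, monocytes, macrophages and T, B and NK cells. The authors' annotation also gives each cell a predicted type, written with a leading t (tHSC, tMPP1 to tMPP5, tGM, tME, tLym, tCP). All 54 libraries came from C57BL/6 mice labelled 8-10 weeks old, from bone marrow, spleen or both. The labels used here give no genotype and no detail of the recipients or of the treatment before transplantation. Annotated cells numbered 1031 transplanted and 1270 at steady state.

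Within each library the counts of a group's cells were added up, and the library was the replicate. Day 1 had 3 libraries with 61 cells, day 3 had 3 with 125, day 5 had 7 with 336 and day 7 had 10 with 389. The steady-state iHSC gates had 12 libraries with 305 cells and the iMPP gates 17 with 508. The animals behind the libraries are not given, so p-values measure the spread between libraries. A library can hold several sorted populations, and libraries L49 and L55 gave sums to both day 7 and iHSC. Libraries L14, L49, L50, L51 and L74 gave sums to both iHSC and iMPP, and L54 to both iHSC and T, B and NK cells. The edgeR and permutation tests did not pair these sums. Levels are counts per 1000000 of the summed counts (CPM). Fold changes are log2, with standard errors, from edgeR's quasi-likelihood test across all genes, and a gene was called at an adjusted p under 0.05.

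Some libraries stood apart in the genes of other cell types. The summed level of 9 granulocyte genes was 137600 CPM in day 1 library L87, where 0 of 6 stem cell markers had a count, against 8272 and 2437 CPM in the other day 1 libraries. Among iHSC libraries, L1 and L54 had 26680 CPM and 25482 CPM of these genes. The mean level of the granulocyte genes was 16767 CPM at day 7 and 4858 CPM in iHSC. The EryA and EryB gates averaged 166830 CPM and the MK gate 136220 CPM, above the 83596 CPM of granulocytes and monocytes. The 1 macrophage library, at 96131 CPM, was above them as well, and its 8 macrophage genes summed to 876 CPM. Where a call was lost without iHSC libraries L1 and L54, this is given beside it. The 10 cycling genes averaged 2517 CPM in iMPP and 241 CPM in iHSC, with 1915 CPM at day 1, 1980 CPM at day 3, 1574 CPM at day 5 and 1899 CPM at day 7, and their part in the results was not tested. The median counts per cell, averaged over libraries, were 157200 in iHSC, 94894 at day 1, 111580 at day 3, 238920 at day 5 and 329260 at day 7.

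Glycolysis turns 1 glucose into pyruvate in the cytosol. Hexokinase traps the sugar, phosphofructokinase commits it, and pyruvate kinase releases the end product. Pyruvate then enters mitochondria through pyruvate dehydrogenase, which the Pdk kinases switch off, or becomes lactate through lactate dehydrogenase and leaves by the Slc16a carriers. Lactate dehydrogenase is a tetramer of Ldha and Ldhb subunits, and the Ldha form is the one usually linked to lactate production. Adult blood stem cells are known for high glycolytic use at rest and for turning to mitochondria as they divide and differentiate. Many glycolytic promoters are known targets of the hypoxia-inducible factors, which bind sites with the core ACGTG, and of MYC, which binds the E-box CACGTG.

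Promoters are shown for 4 genes that the transplantation results turn on: Ldha and Pgk1, called higher at day 7, and Ldhb and Aldoc, called lower. Each is 300 bases of RefSeq sequence on GRCm38.p6, from 250 bases before to 50 after the first listed start, read 5' to 3' on the strand of the gene. Capitals mark ACGTG on either strand. The E-box CACGTG holds ACGTG on both strands and so counts as 2 overlapping matches. The windows are chr7:46845554-46845853 on the plus strand for Ldha, chrX:106186850-106187149 on the plus strand for Pgk1, chr6:142507908-142508207 on the minus strand for Ldhb and chr11:78322823-78323122 on the plus strand for Aldoc.
Ldha: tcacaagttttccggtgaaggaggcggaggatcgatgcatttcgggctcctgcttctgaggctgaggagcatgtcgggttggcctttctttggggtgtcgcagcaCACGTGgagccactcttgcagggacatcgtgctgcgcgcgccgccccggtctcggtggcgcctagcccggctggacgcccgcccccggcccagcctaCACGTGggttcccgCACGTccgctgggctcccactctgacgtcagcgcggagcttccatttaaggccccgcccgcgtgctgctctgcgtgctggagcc
Pgk1: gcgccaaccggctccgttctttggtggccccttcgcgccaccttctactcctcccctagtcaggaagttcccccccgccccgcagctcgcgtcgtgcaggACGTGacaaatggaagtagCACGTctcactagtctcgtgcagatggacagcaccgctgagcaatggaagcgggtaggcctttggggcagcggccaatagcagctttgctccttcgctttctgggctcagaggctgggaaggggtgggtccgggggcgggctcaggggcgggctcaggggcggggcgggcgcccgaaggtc
Ldhb: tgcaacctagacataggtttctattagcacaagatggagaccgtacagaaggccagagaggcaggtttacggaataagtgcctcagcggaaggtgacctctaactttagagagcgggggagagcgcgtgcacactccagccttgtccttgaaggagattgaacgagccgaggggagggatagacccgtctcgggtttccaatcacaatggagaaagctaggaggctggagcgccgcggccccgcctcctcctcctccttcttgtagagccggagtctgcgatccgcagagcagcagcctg
Aldoc: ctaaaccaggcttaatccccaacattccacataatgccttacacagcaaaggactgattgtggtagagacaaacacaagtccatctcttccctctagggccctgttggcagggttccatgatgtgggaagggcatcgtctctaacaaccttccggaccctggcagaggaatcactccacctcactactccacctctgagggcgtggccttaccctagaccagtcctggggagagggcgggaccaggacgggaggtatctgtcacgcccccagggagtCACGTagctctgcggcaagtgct
The Ldha window held 5 matches, among them 2 E-boxes, the Pgk1 window 2 matches and the Aldoc window 1. The Ldhb window held none of these letters. A second listed window had 0 matches for Ldha and 0 for Aldoc. Of the other genes called higher at day 7, Slc16a1 had 3 matches and Slc16a3 had 2. Pgam1, Gapdh and Hk3 had 1 each, Gpi1 and Pdha1 had 0, and the windows of Pkm had 0 and 2. Bpgm, also called lower, had 0. Whether matches differ between genes called higher and lower was not tested. Promoter windows were found for 30 of the 31 genes, and Slc2a3 had no entry in the table used. ACGTG was present in 22 of the 44 windows of these genes (50%) and in 6447 of all 32851 windows in the table (19.62%). CACGTG was present in 6 of 44 (13.64%) and in 2349 of 32851 (7.15%). A match describes these letters only.

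The summed level of the 31 genes differed between steady-state classes. It averaged 8123 ± 717 CPM in granulocytes and monocytes (SD, n = 2), 7910 CPM in the 1 macrophage library, 6958 ± 1242 CPM in erythroblasts (n = 3), 6278 ± 1070 CPM in iMPP (n = 17), 4360 ± 642 CPM in CLP (n = 2), 3396 ± 403 CPM in T, B and NK cells (n = 4) and 5503 ± 643 CPM in iHSC (n = 12). The erythroblast sum differed by predicted type. In tME2 cells, which carry the erythroid genes, it was 2299, 3972 and 7140.5 CPM in libraries L16, L4 and L42. Bpgm alone gave 4836 CPM of the L42 value. In tME1 cells, which are high in granulocyte genes, the sum was 6558, 9957 and 9691 CPM. The 4 libraries of T, B and NK cells lay between 2858 and 3754 CPM, below all 12 iHSC libraries, which lay between 4482 and 6510 CPM. Among single gates, granulocytes were at 9750 CPM, iMPP5 at 9059 CPM and GMP at 8127 CPM, while CMP and MEP were at 4692 CPM and 4665 CPM and B cells at 2915 CPM. The neighbouring iHSC gates, from 5188 CPM in iHSC3 to 5745 CPM in iHSC4, did not differ beyond their spread.

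**Figure D1:**
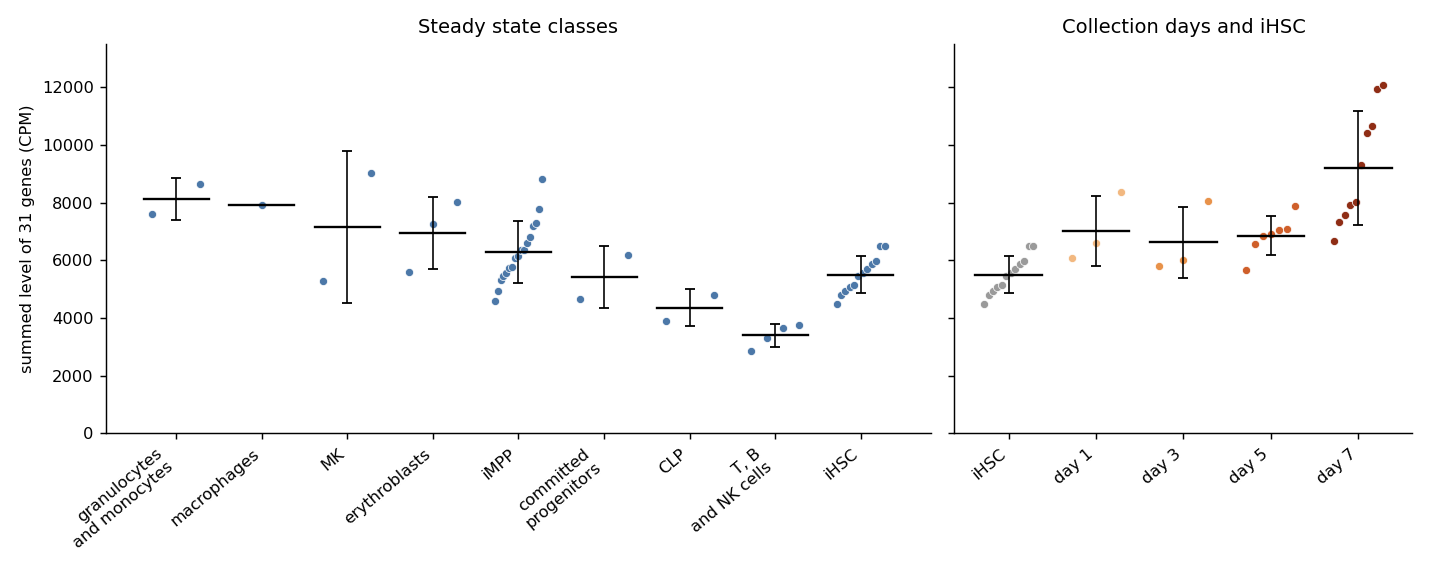
Summed level of the 31 genes in CPM (y axis) by steady-state class (left) and in iHSC and by collection day (right). Each point is 1 library, the line is the mean and the bar is 1 SD. The T, B and NK libraries lie at 2858 to 3754 CPM, and day 7 reaches 12075 CPM.

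After transplantation the sum averaged 5503 ± 643 CPM in iHSC, 7025 ± 1209 CPM at day 1, 6623 ± 1240 CPM at day 3, 6860 ± 667 CPM at day 5 and 9189 ± 1973 CPM at day 7. All 10 day 7 libraries, from 6676 to 12075 CPM, lay above all 12 iHSC libraries. At day 5, 6 of the 7 libraries, from 6564 to 7892 CPM, also lay above all iHSC libraries, and the other was L66 with 8 cells and a high level of granulocyte genes, at 5668 CPM. Of the 3 libraries each, 2 at day 1 and 1 at day 3 lay above the iHSC range. The day 7 sum differed between predicted types: tMPP3 cells of day 7 were at 11904 ± 973 CPM (n = 4), tGM cells at 12186 ± 2663 CPM (n = 5) and tME cells at 12708 ± 2929 CPM (n = 3), whereas tMPP2 cells were at 7153 ± 995 CPM (n = 5) and tMPP5 cells at 7375 ± 1877 CPM (n = 4). The day 7 tME cells were annotated as 26 tME1 cells and 1 tME3 cell. In the erythroblast gates described below, tME1 cells had granulocyte genes at 126950 to 358720 CPM and erythroid genes at 200 to 1342 CPM. The predicted types are set from expression, so the differences between them are a description. Within a type, tMPP2 cells of day 3 were at 6419 ± 985 CPM, those of day 5 at 6973 ± 628 CPM and those of day 7 at 7153 ± 995 CPM, which is no difference beyond the spread. Transplanted tMPP2 cells were at 6973 ± 845 CPM (n = 18) and steady-state tMPP2 cells at 5429 ± 711 CPM (n = 8). Transplanted tMPP1 cells were at 6696 ± 816 CPM (n = 13) and steady-state tMPP1 cells at 5745 ± 390 CPM (n = 5).

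The lactate dehydrogenase subunits changed in opposite directions after transplantation. Ldhb, the subunit of the heart-type enzyme (GRCm38 chromosome 6, 142490249 to 142507957, minus strand), averaged 236 ± 109 CPM in iHSC, with a lowest value of 5.48, a median of 256 and a highest of 357 CPM. At day 1 it was 66.1, 114 and 290 CPM in libraries L83, L84 and L87, and at day 3 it was 188, 144 and 93.8 CPM in L79, L85 and L89. At day 5 the lowest, median and highest values were 9.27, 51.6 and 64.5 CPM, and at day 7 they were 3.91, 18.6 and 109 CPM. All day 5 and day 7 libraries lay below 11 of the 12 iHSC libraries, and the exception was iHSC library L54 at 5.48 CPM. The fold change was -2.44 ± 0.54 at day 5 (adjusted p = 0.00336) and -3.13 ± 0.49 at day 7 (adjusted p = 1.25e-05). It was -0.93 at day 3 (adjusted p = 0.736). Of the 50-base words in the last 500 bases of Ldhb, 24.39% also occur in Gm5514, so its counts and share carry some uncertainty.

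Ldha (chromosome 7, 46841475 to 46855627, plus strand) ran between 342 and 1151 CPM in iHSC, with a median of 656. It was 1031, 1233 and 461 CPM at day 1 and 1492, 957 and 1163 CPM at day 3. The median was 991 CPM at day 5, within 688 to 1499, and 1443 CPM at day 7, within 910 to 1809. Ldha was called higher at day 7, by 1.12 ± 0.18 (adjusted p = 2.42e-05), and 9 of the 10 day 7 libraries lay above every iHSC library. At day 5 the change was 0.49 ± 0.20 (adjusted p = 0.126).

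The share of Ldhb in the counts of both subunits fell over the days. It was 24.7 ± 9.4% in iHSC, 17.7 ± 18.1% at day 1, 10.6 ± 2.8% at day 3, 4.30 ± 1.61% at day 5 and 1.68 ± 1.71% at day 7. The share was lower at day 5 than in iHSC (exact permutation test, two-sided, adjusted p = 0.00397) and lower at day 7 (permutation test, 100000 resamples, adjusted p = 0.0015). At day 3 it was 7.46, 13.05 and 11.2%, which missed the threshold (exact permutation p = 0.022, adjusted p = 0.11). Without iHSC libraries L1 and L54 the day 3 share passed (adjusted p = 0.0194). The day 1 libraries were far apart, at 6.02% in L83, 8.47% in L84 and 38.6% in L87, the library with granulocyte genes and no stem cell marker. The iMPP gates, also at steady state, had a share of 10.7 ± 5.4% (n = 17), lower than iHSC (permutation test, adjusted p = 0.0015). The adjusted values cover 50 shares, 10 shares in 5 comparisons that all use the same iHSC libraries, of which 6 (12%) were called.

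**Figure D2:**
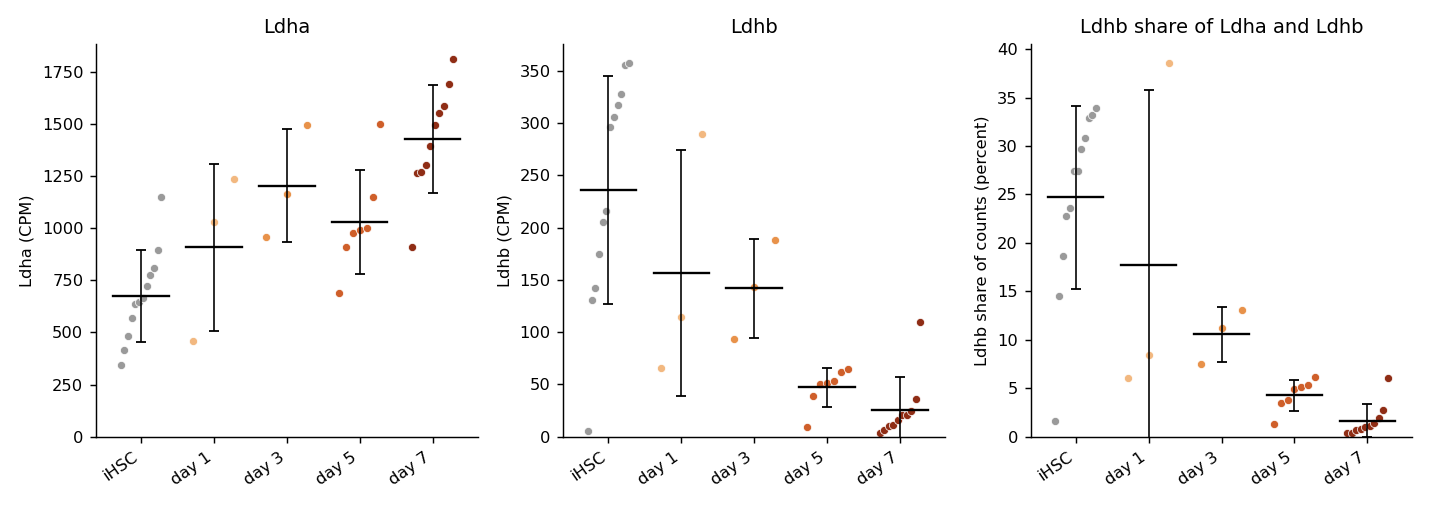
Ldha (left) and Ldhb (middle) in CPM and the Ldhb share of the counts of both in percent (right), in iHSC and by collection day. Each point is 1 library, the line is the mean and the bar is 1 SD, drawn from 0 upward. The day 7 shares run from 0.404 to 6.08%, and the iHSC shares from 1.58 to 33.9%.

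The Ldhb share was also followed by type and day. In tMPP2 cells it was 10.5 ± 5.1% at day 3 (n = 3), 4.23 ± 1.04% at day 5 (n = 6) and 0.879 ± 0.381% at day 7 (n = 5). The 5 day 7 libraries, at 0.315 to 1.299%, all lay below the day 5 range of 2.88 to 5.06%. Steady-state tMPP2 cells spanned a wide range, with 0.077% at the lowest, 5.17% at the median and 11.45% at the highest, which covers both. Over all days the share was 4.65 ± 4.15% in transplanted tMPP2 cells (n = 18) and 5.19 ± 4.29% in steady-state tMPP2 cells (n = 8), a difference within the spread. In tMPP1 cells it was 10.4 ± 0.9% at day 3 (n = 3) and 9.41 ± 3.69% at day 5 (n = 6), and 11.8% in the 1 library of day 7. Over all days it was 10.3 ± 2.6% in transplanted tMPP1 cells (n = 13) and 25.9 ± 18.3% in steady-state tMPP1 cells (n = 5), where library L50 with 6 cells reached 58.3%. The share in tMPP3 cells of day 7 was 1.15 ± 0.46% (n = 4) and in tMPP5 cells of day 7 it was 2.08 ± 1.70% (n = 4). With the cells restricted to the tHSC and tMPP types, day 5 and day 7 had 4.24% and 1.67% against 24.7% in iHSC. Both were called (permutation tests, adjusted p = 0.00397 and 0.0015). This restriction kept 329 of the 336 day 5 cells, so at day 5 it is nearly the same data, and 301 of 389 at day 7. The tHSC1, tHSC2 and tHSC3 cells among them numbered 3, 1 and 1 at day 5. At day 7 there were 4 tHSC2 cells, so these are mostly tMPP cells.

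Day 7 had the most calls among the 31 genes, and also the most libraries of the days. Of the 31 genes, 10 rose and 3 fell relative to iHSC. Among all 13353 genes tested, 10.4% rose and 10.4% fell. The median log2 fold change was 0.14 over the 31 genes and -0.10 over all genes. Under relative log expression (RLE) size factors the median over all genes shifted to -0.31 and that of the 31 genes to -0.10, with 9 rising and 4 falling, and over all genes the split moved to 1055 higher and 1921 lower, where TMM scaling gave 1394 and 1390. The comparisons of day 1, 3, 5 and 7 share their iHSC libraries.

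Enzymes of the lower, energy-yielding steps rose at day 7. Pgam1, the phosphoglycerate mutase of most tissues, was at 371 CPM at the lowest, 548 at the median and 1080 at the highest at day 7, against 109, 192 and 261 CPM in iHSC. The groups did not overlap, and the fold change was 1.90 ± 0.23 (adjusted p = 2.71e-07). Gapdh, the dehydrogenase that starts the energy-yielding steps, had a lowest, median and highest level of 1694, 2757 and 3876 CPM at day 7 and 945, 1315 and 2065 CPM in iHSC. It rose by 1.11 ± 0.16 (adjusted p = 5.28e-06), but 90.47% of the 50-base words in its last 500 bases also occur in other genes, so its count is uncertain. Pgk1, which makes the first ATP of the pathway, averaged 425 ± 89 CPM at day 7 and 207 ± 82 CPM in iHSC, a change of 1.10 ± 0.22 (adjusted p = 0.000403). For Pgk1, 7.32% of these words also occur in other genes. Pkm, pyruvate kinase, averaged 980 ± 324 CPM at day 7 and 577 ± 189 CPM in iHSC, and rose by 0.82 ± 0.20 (adjusted p = 0.00247).

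The other risers at day 7 act at the entry and exit of the pathway. Slc16a3, a lactate exporter known from cells with high glycolysis, averaged 16.6 ± 14.2 CPM at day 7 and 1.17 ± 1.49 CPM in iHSC, where 3 of 12 libraries had none (3.79 ± 0.78, adjusted p = 0.000517). Slc16a1, the widely expressed lactate carrier, averaged 70.3 ± 35.2 CPM at day 7 and 28.1 ± 25.03 CPM in iHSC (1.36 ± 0.43, adjusted p = 0.0195). Gpi1, which converts glucose phosphate to fructose phosphate, averaged 643 ± 274 CPM at day 7 and 360 ± 114 CPM in iHSC (0.91 ± 0.22, adjusted p = 0.00317). Hk3, a hexokinase of myeloid cells, averaged 72.1 ± 45.1 CPM at day 7 and 15.8 ± 17.7 CPM in iHSC (2.23 ± 0.59, adjusted p = 0.00547). Pdha1, a pyruvate dehydrogenase subunit, rose by 0.83 ± 0.29 (adjusted p = 0.0359). Without iHSC libraries L1 and L54, Slc16a1 and Pdha1 changed by 1.04 and 0.70 and were not called.

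Besides Ldhb, the genes that fell at day 7 were Aldoc and Bpgm. Aldoc, the brain-type aldolase, had a median of 2.05 CPM at day 7 and 25.5 CPM in iHSC, where library L55 reached 222 CPM (-3.65 ± 0.98, adjusted p = 0.00625). Bpgm, which makes bisphosphoglycerate and is best known from red cells, had a median of 17.1 CPM at day 7, within 11.4 to 44.3, and of 50.1 CPM in iHSC, within 2.35 to 126 (-1.40 ± 0.44, adjusted p = 0.0179). In the tHSC and tMPP types alone, 9 genes rose and 3 fell at day 7, where 10.7% and 12.5% of all genes did. Hk3 and Gpi1 missed the threshold there, with changes of 1.44 and 0.54 (adjusted p = 0.099 and 0.082).

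**Figure D3:**
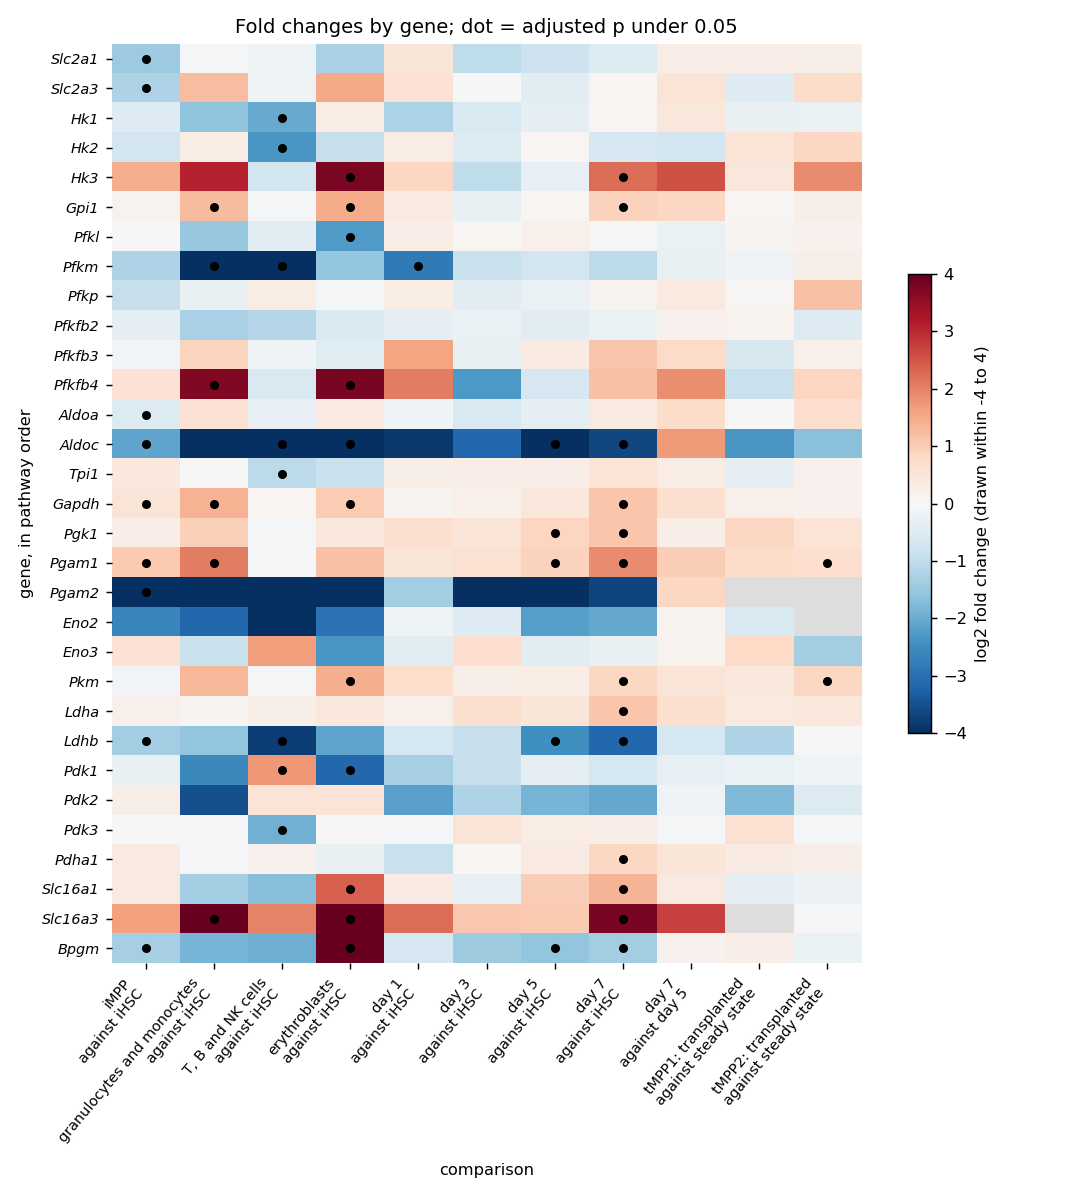
Log2 fold change of each gene (rows, in pathway order) in each comparison (columns), with the compared group named before its baseline. Colours are drawn within -4 to 4, a dot marks an adjusted p under 0.05, and grey marks a gene not tested. Day 7 against iHSC has 13 dots, and day 3 against iHSC has none.

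At day 5, 2 of the 31 genes rose and 3 fell relative to iHSC, beside 4.28% and 3.29% of all genes. Pgam1 averaged 364 ± 60 CPM at day 5 and 179 ± 48 CPM in iHSC, and rose by 0.93 ± 0.24 (adjusted p = 0.0141). Pgk1 averaged 402 ± 80 CPM at day 5 and 207 ± 82 CPM in iHSC, and rose by 0.85 ± 0.24 (adjusted p = 0.024). Aldoc fell by 5.35 ± 1.25 (adjusted p = 0.00533) and Bpgm by 1.56 ± 0.50 (adjusted p = 0.0444), beside Ldhb. The median change was -0.33 over the 31 genes and -0.12 over all genes. Without the 4 day 5 libraries taken from spleen alone, edgeR called none of the 31 genes and 1.58% of all genes. An unadjusted p under 0.05 was then found for 7 of the 31 genes and for 1558 of all 13020. Ldhb then had a change of -2.31 (adjusted p = 0.16). In the tHSC and tMPP types alone, 2 of the 31 genes rose and 3 fell at day 5, beside 5.03% and 4.58% of all genes. These types held 329 of the 336 day 5 cells, so this is nearly the same data.

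Days 1 and 3 gave few calls. At day 1, 1 of the 31 genes fell and none rose, beside 0.801% and 2.34% of all genes. The gene was Pfkm, the muscle-type phosphofructokinase subunit, at 0, 7.62 and 16.8 CPM at day 1 against a median of 51.9 CPM in iHSC (-2.84 ± 0.77, adjusted p = 0.0293). Without library L87 the change was -2.34 and without L83 it was -2.73, and neither was called. At day 3, edgeR called none of the 31 genes and 1.12% of all genes. Of the 31, 4 had an unadjusted p under 0.05 at day 3, beside 1359 of all 13353 genes. DESeq2 and limma voom called 1 of the 31 each, beside 287 of 23154 and 314 of 13353 genes. In the tHSC and tMPP types alone, edgeR called none of the 31 genes at day 1 or day 3. The shares of all genes called there were 1.59% and 1.48%. An unadjusted p under 0.05 was found for 2 and 3 of the 31, beside 1561 and 1721 of all 14005 genes. These types held 123 of the 125 day 3 cells, so at day 3 this is nearly the same data. At day 1 they left 2 libraries with 46 cells. Between day 7 and day 5, edgeR also called none, beside 0.404% of all genes. There 8 of the 31 genes had an unadjusted p under 0.05, all higher at day 7, beside 1255 of all 13353 genes. DESeq2 called 2 of the 31 and limma voom 7, beside 123 of 23154 and 515 of 13353 genes. The smallest adjusted p was 0.0749, for Pgam1 (0.98 ± 0.27), and the median change was 0.39 over the 31 genes and 0.01 over all genes.

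Transplanted and steady-state cells were also compared within a predicted type. No library gave sums to both origins there, so origin cannot be told apart from library. The transplanted sums cover all collection days and include L68, L69 and L70 from spleen alone. No steady-state sum was from spleen alone. In tMPP2 cells, 2 of the 29 genes tested rose and none fell, beside 0.396% and 0.311% of all genes. Pkm averaged 748 ± 202 CPM in transplanted tMPP2 cells and 417 ± 161 CPM in steady-state tMPP2 cells (0.82 ± 0.17, adjusted p = 0.0178). Pgam1 averaged 340 ± 71 CPM in transplanted and 207 ± 66 CPM in steady-state cells (0.68 ± 0.16, adjusted p = 0.028). Neither was called when sums needed at least 10 cells (0.78 and 0.61). Pgk1 changed by 0.55 ± 0.14 (adjusted p = 0.0511). Ldhb averaged 54.9 ± 43.6 CPM in transplanted and 53.2 ± 45.3 CPM in steady-state tMPP2 cells. In tMPP1 cells edgeR called none of 29 genes, beside 0.494% of all genes. There 5 of the 29 genes had an unadjusted p under 0.05, beside 1057 of all 10326 genes. DESeq2 called 2 of 31 genes and limma voom 3 of 29, beside 205 of 23154 and 309 of 10326 over all genes. Ldhb averaged 119 ± 45 CPM in transplanted and 256 ± 150 CPM in steady-state tMPP1 cells (-1.22 ± 0.31, adjusted p = 0.0588).

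At steady state, more of the glycolytic genes were called lower than higher in iMPP relative to iHSC. Of the 31 genes, 2 rose and 7 fell, beside 4.35% and 7.22% of all genes, and the median change was -0.10 over the 31 and -0.16 over all genes. Pgam1 rose, at 386 ± 217 CPM in iMPP and 179 ± 48 CPM in iHSC (1.06 ± 0.28, adjusted p = 0.00769), and so did Gapdh (0.52 ± 0.17, adjusted p = 0.0367). Both glucose carriers fell: Slc2a1, the carrier of most cells, averaged 15.5 ± 10.8 CPM in iMPP and 40.7 ± 34.5 CPM in iHSC (-1.46 ± 0.46, adjusted p = 0.0303). Slc2a3, a high-affinity carrier, averaged 30.6 ± 21.9 CPM in iMPP and 67.5 ± 41.1 CPM in iHSC (-1.25 ± 0.38, adjusted p = 0.0253). Without iHSC libraries L1 and L54 the Slc2a1 change was -1.14 and was not called. Ldhb averaged 96.1 ± 49.8 CPM in iMPP and 236 ± 109 CPM in iHSC (-1.39 ± 0.43, adjusted p = 0.0284).

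The remaining genes that fell in iMPP were aldolases, Bpgm and Pgam2. Aldoa, the main aldolase of blood cells, averaged 491 ± 145 CPM in iMPP and 686 ± 187 CPM in iHSC (-0.56 ± 0.18, adjusted p = 0.0383), and without iHSC libraries L1 and L54 the change was -0.54 and was not called. Aldoc changed by -2.12 and Bpgm by -1.31 (adjusted p = 0.0424 and 0.0449). Pgam2, the muscle-type mutase, was called with -6.02 ± 1.43 (adjusted p = 0.00423), but 9 of 12 iHSC libraries had no count, and the iHSC mean rested on L54 at 117 CPM and L76 at 54.7 CPM. With at least 10 cells per sum, 4 of the 31 genes were called in iMPP, and calls over all genes went from 1716 to 1278.

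In granulocytes and monocytes (2 libraries), 5 of the 31 genes rose and 1 fell relative to iHSC, beside 4.31% and 1.46% of all genes. The median change was -0.03 over the 31 genes and -0.53 over all genes, and without library L5 it was -0.34 over the 31. Slc16a3 was at 39.6 and 73.2 CPM in granulocytes and monocytes, above the iHSC maximum of 4.22 CPM (5.75 ± 1.03, adjusted p = 0.000174). Pgam1 was at 517 and 667 CPM, against an iHSC maximum of 261 CPM (2.05 ± 0.47, adjusted p = 0.00338). Gapdh, Gpi1 and Pfkfb4 also rose, by 1.40, 1.26 and 3.70, where Pfkfb4 is an isoform of the enzyme that makes the phosphofructokinase activator. Pfkm fell by 4.396 ± 1.336 (adjusted p = 0.0376). With only 2 libraries the calls were fragile: without L5 only Slc16a3 was called, and without L43 3 genes were. Calls over all genes also fell, from 857 to 332 without L5 and to 351 without L43.

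T, B and NK cells were the low end of the range. In their 4 libraries 1 of the 31 genes rose and 7 fell, beside 7.35% and 7.83% of all genes, and the median change was -0.32 over the 31 and -0.23 over all genes. Pfkm fell most clearly, at 1.64 ± 1.96 CPM in T, B and NK cells and 53.2 ± 36.7 CPM in iHSC (-4.62 ± 0.98, adjusted p = 0.000919). Ldhb averaged 13.1 ± 20.7 CPM in T, B and NK cells and 236 ± 109 CPM in iHSC (-3.78 ± 0.86, adjusted p = 0.00202). Hk1, the housekeeping hexokinase, averaged 23.5 ± 20.8 CPM in T, B and NK cells and 155 ± 71 CPM in iHSC (-2.01 ± 0.53, adjusted p = 0.00817). Aldoc, Tpi1, Pdk3 and Hk2 fell as well, by 6.42, 1.05, 1.93 and 2.33. The riser was Pdk1, a kinase that turns off pyruvate dehydrogenase, at 140 ± 74 CPM in T, B and NK cells and 61.2 ± 48.5 CPM in iHSC (1.73 ± 0.47, adjusted p = 0.00956). Its level was 259 CPM in CD4+T cells and 35.2 CPM in NK cells, and without library L2 the change was 1.31 and was not called. Tpi1 was not called without L53 or L54 (-0.80 and -0.94), Pdk3 not without L3 or L53 (-1.63 and -1.51), and Hk2 not without L2, L53 or L54 (-1.93, -1.90 and -1.85) or without iHSC libraries L1 and L54 (-2.19). The granulocyte genes were at 45988 CPM in library L3 of this class. Without L3, 1 of the 31 genes rose and 7 fell, beside 839 and 878 of all 14793 genes. The median change was then -1.34 over the 31 genes and -0.31 over all genes. Without L54 the median over the 31 genes was -0.15.

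The erythroblast gates EryA and EryB (3 libraries) had 8 genes higher and 3 lower than iHSC, beside 8.58% and 5.62% of all genes. The median change was -0.02 over the 31 genes and -0.56 over all genes, and with 1 erythroblast library left out in turn the median over the 31 was 0.11 to 0.22. The lowest adjusted p values belonged to Bpgm (4.61 ± 0.66, adjusted p = 1.28e-06), Slc16a3 (5.84 ± 0.97, adjusted p = 2.17e-05) and Gpi1 (1.49 ± 0.31, adjusted p = 0.000454). Gapdh, Pfkfb4, Pkm, Slc16a1 and Hk3 also rose, and Pdk1, Pfkl and Aldoc fell. Without library L4, 5 genes were called, and Gapdh, Hk3, Pfkfb4, Pkm and Slc16a1 were not among them. Calls over all genes fell from 2106 to 1238 without L4. The annotation splits these gates, mostly into tME1 and tME2 cells, and the 2 types differed in markers. The granulocyte genes summed to 15795, 34705 and 52909 CPM in tME2 cells of libraries L16, L4 and L42 and to 330150, 358720 and 126950 CPM in tME1 cells. The erythroid genes summed to 40653, 25535 and 27529 CPM in tME2 cells and to 507, 200 and 1342 CPM in tME1 cells. The hemoglobin genes of the marker list (Hba-a1, Hbb-bs and Hbb-bt) had no count in these cells.

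Bpgm was high in the tME2 cells, at 871, 1929 and 4836 CPM in L16, L4 and L42, against 11.7, 16.5 and 246 CPM in the tME1 cells of the same libraries. These sums held 5, 7 and 17 tME2 cells and 10, 8 and 13 tME1 cells. Slc16a1 was at 376, 405 and 356 CPM in tME2 cells and at 2.25, 5.48 and 14.97 CPM in tME1 cells. The reverse held for Hk3, at 3.03, 7.64 and 14.1 CPM in tME2 cells and 147, 375 and 133 CPM in tME1 cells. Gapdh was at 106, 433 and 394 CPM in tME2 cells and 1664, 3774 and 2618 CPM in tME1 cells. The types do not overlap in these 4 genes, which were picked from those called higher in the whole gates. Hk1, Pfkl and Tpi1 do overlap. How many of all genes separate the types was not counted. Slc16a3 was also lower in tME2 cells, at 0, 6.55 and 16.3 CPM in L16, L4 and L42, against 35.9, 107 and 57.6 CPM in tME1 cells. Compared with iHSC, the tME2 cells alone had 3 genes higher (Bpgm, Slc16a1 and Slc16a3) and 8 lower, beside 10.6% and 9.56% of all genes. The lower genes included Ldhb (-4.60), Pdk1 (-3.27), Ldha (-1.57) and Gapdh (-1.31). Gapdh, Gpi1, Pkm and Hk3 there had the opposite sign to the whole gates. These comparisons describe types that were named from expression.

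**Figure D4:**
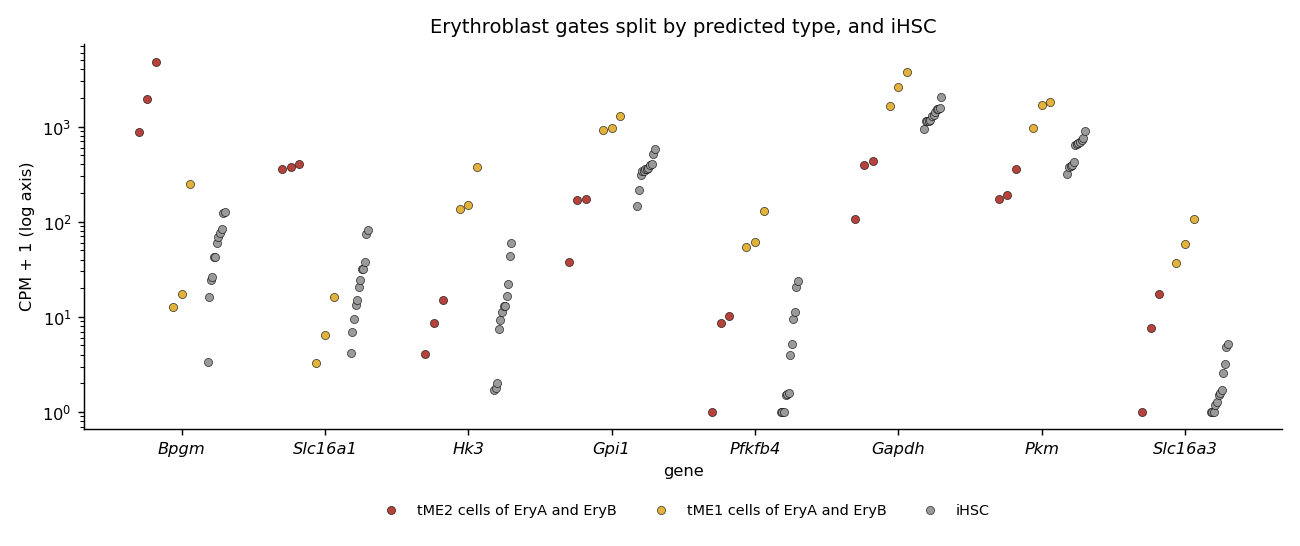
Levels of the 8 genes called higher in the erythroblast gates, as CPM + 1 on a log axis, in tME2 cells, tME1 cells and iHSC. Each point is 1 library. Bpgm and Slc16a1 are high in tME2 cells, and Hk3, Gpi1, Pfkfb4, Gapdh, Pkm and Slc16a3 are high in tME1 cells.

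Hexokinase isoform choice differed between gates. Hk3 took 61.3% of the hexokinase counts in granulocytes, 64.4% in macrophages, 62.9% in iMPP5 and 59.5% in GMP. Hk1 took 93.9% in CMP, 96.5% in MEP and 99.6% in CD4+T cells, and 57.4 to 77.3% in the iHSC gates. Hk2, the inducible form, had its highest shares in MK at 37.9%, iHSC4 at 35.8% and monocytes at 35.1%. At day 7 the Hk3 share was 27.7 ± 15.9%, against 6.92 ± 7.01% in iHSC (permutation test, adjusted p = 0.0075), and in the tHSC and tMPP types alone it was not called. By type, the day 7 share was highest in tGM cells, at 72.5 ± 6.1% (n = 5), close to the 70.9 ± 9.3% of tME1 cells (n = 3). It was 43.02 ± 9.6% in tMPP3 cells (n = 4), while tMPP2 cells had 2.04 ± 1.36% (n = 5). The granulocyte genes also differed between day 7 and iHSC, and their part was not tested.

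**Figure D5:**
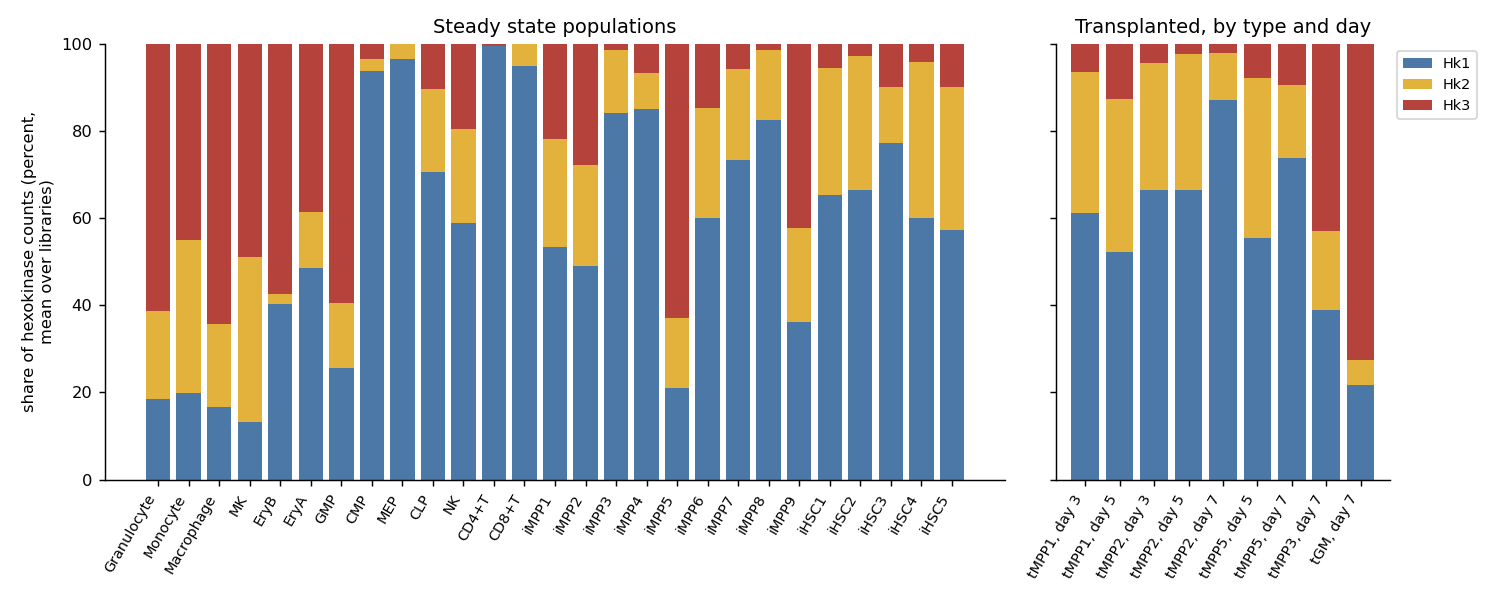
Share of Hk1, Hk2 and Hk3 in the hexokinase counts in percent (stacked bars, mean over libraries), by steady-state gate (left) and by type and day of transplanted cells (right). Hk3 takes 61.3% in granulocytes and 72.5% in tGM cells of day 7, and Hk1 takes 96.5% in MEP.

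In the phosphofructokinase family, Pfkl, the liver-type subunit, took 52.1 ± 11.9% of the counts in iMPP and 34.4 ± 13.6% in iHSC (permutation test, adjusted p = 0.0085). Pfkm took 40.3% in CMP and 41.2% in MEP but 2.1% in granulocytes and 0.2% in CD4+T cells, and Pfkp, the platelet-type subunit, took 84.1% in NK cells. Aldoc took 0.357 ± 0.462% of the aldolase counts at day 7 and 4.32 ± 4.83% in iHSC (permutation test, adjusted p = 0.0393), which was not called in the tHSC and tMPP types alone. Pgam2 took under 1% of the mutase counts in all gates except NK, at 2.6%, and iHSC3, at 13.8%. Slc2a3 took 66.8 ± 18.2% of the counts of both glucose carriers at day 7 and 60.3 ± 19.1% in iHSC, with no call (adjusted p = 0.566). By gate it ran between 18.4% in CD4+T cells and 98.2% in CMP. Shares computed per transcript length gave the same number of calls, 6 of 50.

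Enolase choice could not be followed, because Eno1, the main enolase of most cells, was nearly without counts. The near-identical copy Eno1b, which shares 75.17% of the 50-base words of the last 500 bases, had 9752 counts in 72.66% of the cells. Its level was 8.77 CPM in iHSC, 13.01 CPM at day 1, 9.72 CPM at day 3, 10.9 CPM at day 5 and 19.6 CPM at day 7. Of the counted enolases, Eno3, the muscle type, was at 224 CPM in MK, where the 2 libraries held 3.2 and 445 CPM. Eno2, the neuronal type, averaged 1.13 ± 2.45 CPM in iMPP and 6.23 ± 7.72 CPM in iHSC.

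Some gates stood out in single genes. Pkm was at 17.1 CPM in MEP and 45.1 CPM in CMP, against 831 CPM in GMP, each with 1 library. Slc2a1 was at 118 CPM in CLP and 0.4 and 0.5 CPM in MEP and CMP. The genes Eno2, Eno3, Pfkp, Pfkfb2, Pfkfb3 and Pdk2 were called in none of the 11 comparisons run with edgeR, and the other 25 genes in at least 1.

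Several neighbouring routes also had calls at day 7, where 10.4% of all genes rose and 10.4% fell. Of the pentose phosphate genes, which divert glucose to NADPH and ribose, 5 of 7 rose and none fell, led by G6pdx (2.37, adjusted p = 0.000105) and Taldo1 (1.17, adjusted p = 0.00021). Of 14 genes from pyruvate into the citrate cycle 5 rose and none fell, among them Mdh2 (1.18) and Fh1 (1.31). Of 5 genes of serine and glycine synthesis 3 rose, led by Psat1 (2.54). Of 11 side-route genes 2 rose, Tigar and Pygl (3.43 and 1.38), and Galm fell (-2.41). Of 14 HIF and MYC regulators and HIF targets none rose and 3 fell: Txnip, which curbs glucose uptake (-2.43, adjusted p = 6.83e-07), Ddit4 (-3.25) and Vegfa (-2.43). Hif1a and Myc themselves were not called.

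At day 5 the same lists had no pentose phosphate gene called, 2 of 14 citrate cycle genes higher (Fh1 and Mdh2), 2 of 5 serine genes higher (Psat1 and Shmt2), Tigar higher and Txnip lower (-1.97). Among all genes, 4.28% rose and 3.29% fell at day 5. At day 3 only Txnip was called (-1.94, adjusted p = 0.0444), and at day 1 only Tkt, of the pentose phosphate list (2.18, adjusted p = 0.00838). The shares of all genes were 1.12% called at day 3, and 2.34% higher and 0.801% lower at day 1. Between day 7 and day 5, G6pdx and Pygl were called higher (2.54 and 2.52), where 0.404% of all genes were called. In iMPP, where 4.35% of all genes rose and 7.22% fell, Txnip (-1.95), Ddit4, Epas1 and Vegfa fell and no gene of that list rose. Also in iMPP, 2 of 7 pentose phosphate genes rose (Pgls and Taldo1), 2 of 14 citrate cycle genes (Fh1 and Mdh2) and 2 of 5 serine genes (Psat1 and Phgdh), and Adpgk of the side routes fell (-1.25). In granulocytes and monocytes 3 of 7 pentose phosphate genes rose, Taldo1, G6pdx and Pgd (2.56, 3.20 and 3.09), beside 4.31% of all genes. In the erythroblast gates 4 of 7 rose, beside 8.58% of all genes, and in T, B and NK cells 1 of 7, Taldo1, beside 7.35%. The pentose phosphate genes summed to 2472 CPM in the erythroblast gates and 2538 CPM in granulocytes and monocytes. The granulocyte genes there were at 166830 and 83596 CPM, and their part was not tested. In tMPP1 and tMPP2 cells edgeR called no gene of these lists between transplanted and steady-state cells. Calls over all genes were also few, at 0.494% in tMPP1, and 0.396% higher and 0.311% lower in tMPP2. An unadjusted p under 0.05 was found for 2 and 10 of the list genes, beside 1057 of all 10326 and 1171 of all 10604.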

How the data were processed

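The authors' deposited table holds whole-number counts of reads per gene and cell, made with TopHat, HTSeq and build mm10, per the submitters' processing notes; versions, strand setting and annotation are not given in the sources used here. The deposited cell annotation gives origin, phenotype and predicted type for 2301 of 2879 cells, and the 578 others were not used. The collection day was taken from the library labels. Annotated cells had 20013 to 1943315 counts (median 203971), and 0 pairs of cell columns were identical. No molecular identifiers are described, so counts carry amplification error. The labels of libraries L4 and L49 differ from the cell annotation, which was followed. Groups were set by annotation and, for the day, by library label. The 120 cells of 3 libraries that pool days were left out of day comparisons.

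Counts were summed per library and group (at least 5 cells) and tested in R 4.3.3 with edgeR 4.0.16 (low counts filtered, TMM scaling, quasi-likelihood F test, Benjamini-Hochberg adjustment over all genes, threshold 0.05). The steady-state fit held 45 sums and 14834 genes, the time fit 35 and 13353, the tMPP1 fit 18 and 10326 and the tMPP2 fit 26 and 10604. Sums held 517741 to 30433157 counts. CPM values are unscaled. Isoform shares need at least 20 counts of the family and were tested by permuting libraries, two-sided, adjusted over 50; the share of Eno1 was left out because the gene had too few cells. DESeq2 1.42.0 and limma 3.58.1 (voom with the library as a block) were alternatives. Fits were tested on simulated data. Called genes are named up to 8 each way by adjusted p, with 2 examples from neighbouring lists; single gates, Galm, Mdh2 and libraries named for their markers were chosen after their values were seen. The genes, lists and tests were chosen with earlier results of these data known. Coordinates come from GENCODE vM21 on GRCm38.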

Additional observations from a re-analysis of the deposited data

Results flagged for a closer look

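Of 104 group values tested in groups of 4 to 10 libraries, 25 had 1 library far from the others by Dixon's criterion at the 95% level. Chance gives about 1 of 20 for normally distributed values only, so 25 cannot be set against that rate for CPM values. Pgam2 at day 5, for example, was 0 in 6 of 7 libraries, so any count in the remaining library was flagged. The libraries were few. At day 5, L66 (8 cells, granulocyte genes at 21508 CPM) stood apart in Hk3 at 30.6 CPM, Gpi1 at 540 CPM, Gapdh at 1445 CPM, Pgk1 at 231 CPM and the Hk3 share at 25.6%. Also at day 5, L69 stood apart in Pfkfb3 at 24.97 CPM and Pgam2 at 4.56 CPM, and L86 in Pdk3 at 124 CPM. At day 7, L55 (5 cells) stood apart in Pfkfb3 at 62.9 CPM, Aldoc at 12.5 CPM, Eno3 at 25.8 CPM, Bpgm at 44.3 CPM and the Aldoc share at 1.58%. At day 7, L78 stood apart in Ldhb at 109 CPM and in the Ldhb share at 6.08%, where the other 9 libraries had 0.404 to 2.79%. Among T, B and NK cells, L3 (granulocyte genes at 45988 CPM) stood apart in Hk2 at 30.7 CPM, Hk3 at 25.8 CPM, Pfkfb2 at 15.98 CPM, Pfkfb3 at 20.4 CPM, Pfkfb4 at 9.34 CPM, Pgam1 at 230 CPM and Slc16a3 at 13.3 CPM. In the same class L53 stood apart in Ldhb at 44.1 CPM and Pdk2 at 30.7 CPM, and L54 in Pgam2 at 1.17 CPM.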

How the results depend on the processing

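Of the 55 calls on single genes over all comparisons, 17 kept their direction and their adjusted p under 0.05 in every alternative run, 38 lost the threshold in at least 1, and 4 changed direction, all in erythroblasts when tME2 cells were taken alone: Gapdh -1.31, Gpi1 -0.69, Hk3 -0.062 and Pkm -0.46. Calls among the 31 genes moved by more than 1.5 times as follows, and the cause was not tested. With at least 10 cells per sum there were 4 in iMPP (9 before), 0 at day 1 (1), 3 between day 7 and day 5 (0) and 0 in tMPP2 (2). Calls over all genes there went from 1716 to 1278, 419 to 451, 54 to 210 and 75 to 58. With DESeq2 there were 10 in granulocytes and monocytes (6), 2 at day 1, 1 at day 3 (0), 2 between day 7 and day 5, 2 in tMPP1 (0) and 6 in tMPP2. Over all genes DESeq2 called 1713, 727, 287, 123, 205 and 423 there, where edgeR called 857, 419, 149, 54, 51 and 75. With limma voom there were 0 at day 1, 1 at day 3, 7 between day 7 and day 5, 3 in tMPP1 and 5 in tMPP2. Its calls over all genes were 103, 314, 515, 309 and 268 there. RLE size factors gave 4 in tMPP2, and no filter on low counts gave 1 in tMPP1, beside 80 and 130 over all genes. Leaving out 1 library gave 1 to 3 in granulocytes and monocytes, 5 to 9 in erythroblasts and 0 to 1 at day 1. The same runs gave 332 to 351, 1238 to 1462 and 229 to 638 calls over all genes. Chosen after seeing the data, the tHSC and tMPP types alone gave 0 at day 1, beside 222 calls over all genes. Leaving out iHSC libraries L1 and L54 gave 10 called shares (6). Without the spleen-only libraries day 5 had 0 (5), beside 206 calls over all genes (1011). The summed level was also taken without the genes that share any 50-base word of their last 500 bases with another gene. These were Gapdh (90.47% of the words), Ldhb (24.39%), Pgk1 (7.32%), Gpi1 (4.21%) and Aldoa (3.33%). The sum was then 3322 CPM in granulocytes and monocytes, 3754 in erythroblasts, 2963 in iMPP, 1614 in T, B and NK cells and 2656 in iHSC. By day it was 3622 at day 1, 3502 at day 3, 3390 at day 5 and 4400 at day 7. By replicate number no paired analysis was possible because the labels carry none. A test paired by shared library was not run. Libraries that gave sums to both groups entered the limma voom fit as a block. Few libraries (2 to 4) limit the granulocyte, lymphocyte, erythroblast, day 1 and day 3 results.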

Other observations

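The 3 libraries described here hold transplanted cells of more than 1 day in a pool, and so enter no comparison by day. Library L77 had 38 annotated cells, a summed level of 6911 CPM over the 31 genes and an Ldhb share of 7.40% of the counts of both lactate dehydrogenase subunits. Library L80 had 28 cells, a summed level of 7315 CPM and an Ldhb share of 11.95%. Library L88 had 54 cells, a summed level of 6939 CPM and an Ldhb share of 7.20%.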
